A study of Bos taurus with 96 samples.

Results

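The data described here are the read-pair counts of 3 antioxidant enzyme genes, GPX2 (ENSBTAG00000048112), GPX3 (ENSBTAG00000043553) and SOD2 (ENSBTAG00000006523), out of 24616 genes counted in biopsies of liver and muscle from 16 Holstein cows. The members were chosen by name, and the comparison set for them was the time course within each cow. Each cow was biopsied in both tissues at late pregnancy (LP), in early lactation directly after calving (EL) and in mid lactation (ML), which gave 96 libraries, 48 in each tissue. The cows belonged to a good (Fert+) or a poor (Fert-) genetic merit for fertility line, with 8 cows in each, and the lines were selected to have similar merit for milk production. All 16 cows were managed as 1 herd, were of parity 1 or 2 and were not bred in the lactation that was sampled. Muscle was taken from the semitendinosus and liver by puncture biopsy, so each library holds RNA of all cells in the biopsy, and fewer cells of a type cannot be told apart from less RNA per cell.

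Superoxide, which leaks from the mitochondrial respiratory chain and is made on purpose by phagocytes, is converted to hydrogen peroxide by superoxide dismutases, and peroxides are then reduced by catalase, peroxiredoxins and glutathione peroxidases. SOD2 is the manganese superoxide dismutase of the mitochondrial matrix, GPX3 is the secreted selenium-containing glutathione peroxidase of blood plasma, and GPX2 is a glutathione peroxidase best known from the epithelium of the gut. Calving puts a sudden demand on both tissues, since liver must supply glucose for milk while muscle gives up amino acids and reserves, and it is accompanied by an acute phase response in liver.

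The 3 genes took 3 different courses. GPX3 was highest directly after calving in both tissues, and its change passed the test in both directions in muscle and on the way from EL to ML in liver. SOD2 fell in muscle at EL and returned by ML, whereas in liver it stayed near 1 level in all but a few libraries. GPX2 was counted at a low level in liver and close to the limit of detection in muscle, and no change over time passed the test.

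Libraries held between 14966847 and 26358063 counts in liver and between 15279337 and 22018740 in muscle. Values are given as counts scaled to a common library total (CPM), adjusted with edgeR's TMM factors and without correction for gene length, so that levels are compared between samples and not between genes. The tissue labels held: the summed level of 6 hepatocyte markers was 63122 to 191760 CPM in liver and at most 154.9 CPM in muscle, and that of 7 skeletal muscle markers was 22835 to 241327 CPM in muscle and at most 38.3 CPM in liver. The counts also set 13 of the 96 libraries apart, 8 of liver and 5 of muscle, by 19 genes of which 11 or more had at least 50 counts in each of those libraries and at most 3 did in each of the others. No label names this set, which was found from the counts and whose origin is unknown, and its members are called the marked libraries below. In muscle all 5 came from Fert- cows, so there the mark and the line are not independent, and in liver they came from both lines. For several results the values without them are given as well.

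In liver GPX3 covered a very wide range, from 11.4 to 5802 CPM over the 48 libraries. At LP the lowest, median and highest of the 16 cows were 11.4, 99.5 and 5802 CPM (mean 659.9 ± 1476, SD). At EL they were 35.3, 1067 and 3584 CPM (mean 1414 ± 1208). At ML they were 32.9, 125.7 and 3721 CPM (mean 524 ± 990.3). All 3 time-points overlapped, because each of them held cows near the bottom and near the top of the range.

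**Figure D1:**
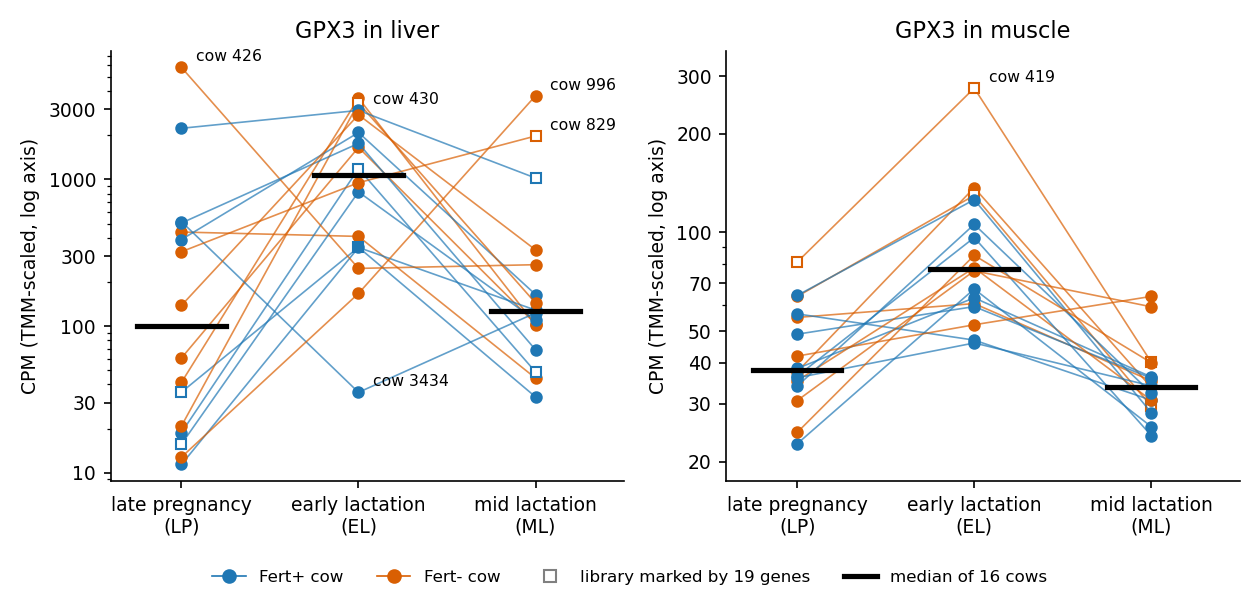
GPX3 CPM on a log axis at LP, EL and ML in liver (left) and muscle (right). Each line is 1 of 16 cows, coloured by fertility line, open squares are the marked libraries and black bars are medians. The median in liver stands at 99.5, 1067 and 125.7 CPM, with single cows running against it, and in muscle at 38.0, 77.2 and 33.9 CPM.

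Between LP and EL, GPX3 in liver was higher in 13 of 16 cows and lower in 3, with a median ratio of 11.4 within a cow. The largest ratio was 159-fold, in Fert- cow 419, from 20.9 to 3320 CPM. The exceptions were Fert- cow 426, which had 5802 CPM at LP and 247 CPM at EL, Fert+ cow 3434, with 515.7 and 35.3 CPM, and Fert- cow 1000, with 437.9 and 408.9 CPM. All 3 of these cows were above the median of 99.5 CPM at LP. The fit within cows gave a log2 fold change of 2.85 ± 0.92 (SE), which did not pass the threshold after adjustment over all genes (edgeR quasi-likelihood test with Benjamini-Hochberg adjustment, adjusted p = 0.0805), in a comparison in which 2.4% of 13815 genes were called. The call depended on the tool and on single cows: the DESeq2 Wald test gave a log2 fold change of 2.86 with an adjusted p of 9.32e-04, leaving out cow 426 gave 3.31 with an edgeR adjusted p of 0.0125, and leaving out cow 3434 gave 3.24 with 0.042. Without the marked libraries the log2 fold change was 1.88 ± 0.998 and the edgeR adjusted p 0.463, in a fit that called 0 genes (1624 at an unadjusted p under 0.05).

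From EL to ML GPX3 fell in liver. The log2 fold change was -2.84 ± 0.86 (edgeR adjusted p = 0.00907), with lower values in 12 of 16 cows and a median ratio of 0.114, in a comparison in which 41.6% of genes were called. The cows that were higher at ML were Fert- cow 996, which went from 167 to 3721 CPM, Fert- cow 829, from 949.8 to 1978 CPM, Fert+ cow 3434, from 35.3 to 123 CPM, and Fert- cow 426, from 247.4 to 262.2 CPM. The call was lost without the marked libraries, where the log2 fold change was -2.48 and the edgeR adjusted p 0.0755. Leaving out any 1 cow kept it, with values between -3.19 and -2.60. Between LP and ML, a comparison with 15.2% of genes called, the log2 fold change was 0.01 ± 0.88 (edgeR adjusted p = 0.992), with an approximate 95% interval from -1.70 to 1.73. By median the order was therefore EL, ML and LP, and the last 2 could not be separated.

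GPX3 varied less between cows in muscle than in liver, and liver was above muscle in 9 of 16 cows at LP and in 15 of 16 at EL and at ML. The lowest, median and highest of 16 cows were 22.7, 38.0 and 81.2 CPM at LP (mean 44.2 ± 16.1). They were 46.0, 77.2 and 275.6 CPM at EL (mean 94.1 ± 56.7) and 24.0, 33.9 and 63.8 CPM at ML (mean 36.2 ± 10.9). The EL values lay above the LP value of the same cow in 15 of 16 cows, the exception being Fert+ cow 3445 with 56.4 CPM at LP and 46.9 CPM at EL. With counts scaled by library total alone, that cow too was higher at EL, which made 16 of 16.

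GPX3 rose in muscle from LP to EL by 1.03 ± 0.18 on the log2 scale, a 2.04-fold increase (edgeR adjusted p = 7.95e-06). It fell from EL to ML by 1.26 ± 0.18 (edgeR adjusted p = 2.60e-07), with lower values in 15 of 16 cows. ML and LP differed by -0.23 ± 0.17 (edgeR adjusted p = 0.452). Calls in muscle were common at these steps, at 57.4% of 12675 genes from LP to EL and 63.0% from EL to ML, and 8.98% between LP and ML, so most genes were called at the steps where GPX3 was. The highest library, Fert- cow 419 at EL with 275.6 CPM, was a marked library, and without the marked libraries the 2 changes were 0.96 and -1.10, both still called (edgeR adjusted p = 3.42e-05 and 4.58e-06).

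SOD2 in muscle took the opposite course to GPX3. The lowest, median and highest of 16 cows were 32.9, 46.8 and 55.4 CPM at LP (mean 46.1 ± 6.81). They were 13.4, 30.1 and 46.4 CPM at EL (mean 29.3 ± 9.11) and 32.8, 43.6 and 56.7 CPM at ML (mean 43.9 ± 7.64). SOD2 was lower at EL than at LP in 16 of 16 cows, or in 15 with counts scaled by library total alone, and higher at ML than at EL in 15 of 16, or in 12 with that scaling. The lowest EL values were those of Fert- cow 419 at 13.4 CPM, a marked library, and Fert- cow 1179 at 14.0 CPM.

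**Figure D2:**
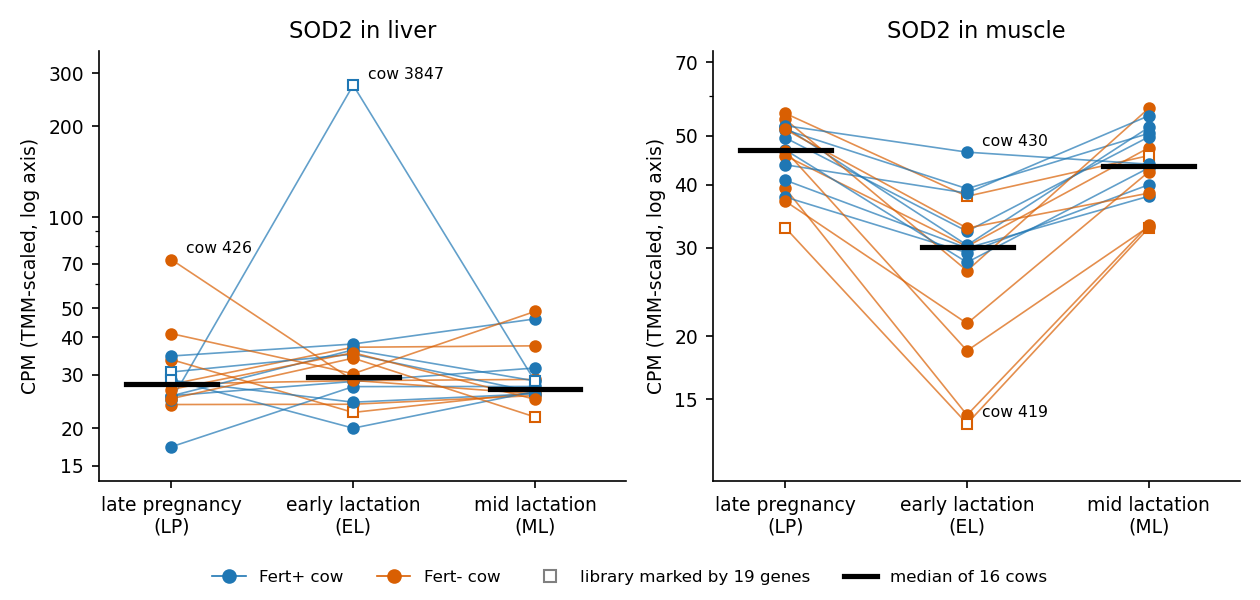
SOD2 CPM on a log axis at LP, EL and ML in liver (left) and muscle (right). Each line is 1 of 16 cows, coloured by fertility line, open squares are the marked libraries and black bars are medians. In muscle all 16 lines go down to EL and 15 come up again, and in liver the medians lie between 27.0 and 29.5 CPM while 1 library of cow 3847 stands at 274.1 CPM.

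The fall of SOD2 in muscle from LP to EL was 0.70 ± 0.08 on the log2 scale, or 1.62-fold (log2 fold change -0.70, edgeR adjusted p = 1.27e-08), and the rise from EL to ML was 0.62 ± 0.08, or 1.54-fold (edgeR adjusted p = 6.76e-08). ML and LP differed by -0.08 ± 0.08 (edgeR adjusted p = 0.623), with an approximate 95% interval from -0.24 to 0.09. Without the marked libraries both changes were called again, at -0.67 and 0.60 (edgeR adjusted p = 1.30e-07 and 4.94e-07).

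The make-up of the muscle libraries moved at the same time. The summed level of the skeletal muscle markers (ACTA1, MYH1, MYH2, MYH7, CKM, DES and MB, 8 identifiers) was 128392 to 203783 CPM at LP, 22835 to 183248 CPM at EL and 174215 to 241327 CPM at ML, and was lower at EL than at LP in 15 of 16 cows. Of the 8 identifiers, 7 fell from LP to EL and 7 rose from EL to ML. The background for these and the marker counts below was 57.4% of all muscle genes called from LP to EL and 63.0% from EL to ML. Across the 16 cows the change of this sum from LP to EL correlated with the change of SOD2 (Pearson r = 0.83) and inversely with that of GPX3 (r = -0.52). Both of 2 tested neutrophil markers rose at EL, and none of 3 tested macrophage markers passed the test. The summed level of all 3 matched neutrophil markers was low, at 0.27 to 2.33 CPM at LP (median 0.62) and 0.38 to 15.1 CPM at EL (median 1.22). From LP to EL, COL1A1, a fibroblast collagen, fell by 1.74 on the log2 scale, ADIPOQ of adipocytes fell by 0.92, and VWF of endothelium (0.51) and the acute phase genes HP (2.55) and LBP (1.25) rose (edgeR adjusted p = 1.36e-06, 0.0372, 4.95e-04, 8.26e-04 and 0.0134). The other tested adipocyte markers, CIDEC (-0.32) and FABP4 (0.41), did not pass the test (edgeR adjusted p = 0.551 and 0.341). Nor did the other tested acute phase genes, SAA3 (0.87) and ITIH4 (-0.05, edgeR adjusted p = 0.197 and 0.744). From EL to ML, 4 of 5 tested hepatocyte markers rose in muscle, where the sum of all 6 was 2.75 to 154.9 CPM at ML (median 10.9). The part of these shifts in the changes of GPX3 and SOD2 was not tested.

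In liver SOD2 was at 17.3, 28.0 and 72.4 CPM (lowest, median and highest of 16 cows) at LP. The same 3 values were 19.99, 29.5 and 274.1 CPM for EL, and 21.8, 27.0 and 48.7 CPM for ML. The groups overlapped almost completely, and a single library set the top of the range: that of Fert+ cow 3847 at EL, 7.21 times the next highest of that time-point at 38.0 CPM. The same cow had 24.8 CPM at LP and 28.6 CPM at ML.

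The fits for SOD2 in liver gave log2 fold changes of 0.20 ± 0.21 from LP to EL, -0.23 ± 0.21 from EL to ML and -0.03 ± 0.20 from LP to ML (edgeR adjusted p = 0.601, 0.382 and 0.947). Leaving out cow 3847 put the first at -0.02 and the second at -0.01, and dropping the marked libraries, of which this was 1, put the first at 0.00. The library of cow 3847 at EL held 22799657 counts. Its summed acute phase level was 75236 CPM and its neutrophil marker level 102.1 CPM, each exceeded by 1 of the 15 other cows at EL, while its hepatocyte marker level of 103009.5 CPM lay inside the range of the others. The highest SOD2 at LP, 72.4 CPM in cow 426, was found in the library with the highest GPX3 of all.

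The change of SOD2 differed between the tissues. From LP to EL the change in liver exceeded that in muscle by 0.89 ± 0.96 (SD, n = 16 cows) on the log2(CPM + 1) scale, with a higher value in 14 of 16 cows (exact sign-flip permutation test over cows, two-sided, p = 4.58e-04). From EL to ML it was lower than in muscle by a difference of -0.82 ± 0.92 (exact permutation p = 7.32e-04). Without cow 3847 the differences were 0.70 and -0.64. For GPX3 the change in liver exceeded that in muscle by 1.74 ± 3.17 from LP to EL (exact permutation p = 0.0475) and was more negative by -0.93 ± 2.19 from EL to ML (exact permutation p = 0.110). Over the 9 cows with no marked library, the SOD2 differences were 0.75 and -0.68 (exact permutation p = 0.0156 and 0.0117) and the GPX3 differences 0.57 and -0.46 (exact permutation p = 0.641 and 0.590). These p-values are not adjusted, and 6 such tests were run, the remaining 2 being for GPX2 with p-values of 0.827 and 0.359 from the same exact permutation test.

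GPX2 was scarce. In liver it was counted 738 times over 48 libraries, between 1 and 83 per library, and the lowest, median and highest of 16 cows were 0.056, 0.51 and 1.35 CPM at LP, 0.088, 0.73 and 2.32 CPM at EL and 0.18, 0.53 and 3.20 CPM at ML. The ranges overlapped at all 3 time-points. The log2 fold changes were 0.36 ± 0.35 from LP to EL, 0.15 ± 0.34 from EL to ML and 0.51 ± 0.35 from LP to ML (edgeR adjusted p = 0.580, 0.746 and 0.340), and the approximate 95% interval of the last, -0.17 to 1.20, leaves room for a 2-fold change. Without the marked libraries the values were 0.74 ± 0.35, -0.29 ± 0.36 and 0.44 ± 0.37 (edgeR adjusted p = 0.414, 0.561 and 0.466).

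**Figure D3:**
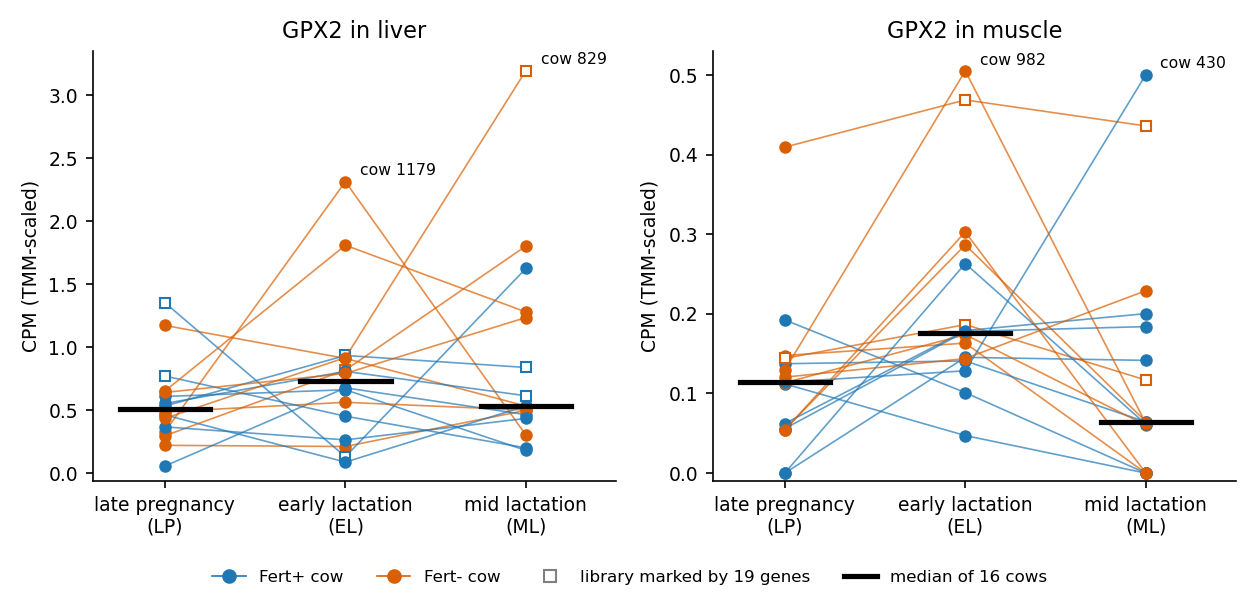
GPX2 CPM on a linear axis at LP, EL and ML in liver (left) and muscle (right), drawn to different scales. Each line is 1 of 16 cows, open squares are the marked libraries and black bars are medians. Liver values reach 3.20 CPM in cow 829 at ML, a marked library, and muscle values stay at or under 0.51 CPM, with 6 libraries at 0.

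In muscle GPX2 had 141 counts over 48 libraries and did not pass the filter on low counts. The 16 libraries of a time-point together held 32 counts at LP, 74 at EL and 35 at ML, with exact 95% Poisson intervals of 21.9 to 45.2, 58.1 to 92.9 and 24.4 to 48.7, which cover counting error only. No count was seen in 2 libraries at LP and 4 at ML, which at 3 counts of each library's total allows up to 0.16 to 0.19 CPM. GPX2 was higher at EL than at LP in 14 of 16 cows. In the edgeR fit without a gene filter the log2 fold change was 0.93 ± 0.38 (adjusted p = 0.0507) from LP to EL and -0.80 ± 0.38 (adjusted p = 0.0872) from EL to ML. Neither change passed the threshold.

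In liver GPX3 was among the genes that differed most between cows. At LP in liver its SD over the 16 cows was 2.75 on the log2(CPM + 1) scale, against a median SD of 0.25 over 13815 genes, and 3 genes had a larger one. At EL and ML the SD was 1.86 and 1.93, with 41 and 20 genes above it. In muscle it was 0.50, 0.68 and 0.37 at LP, EL and ML. SOD2 in muscle varied about as much as a typical gene at LP, with an SD of 0.22 against a median of 0.24, and more than that at EL, with 0.49 against 0.30.

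The genes whose levels followed GPX3 most closely in liver were those of the acute phase response and metal binding. Among named genes, the 5 highest Pearson correlations of log2(CPM + 1) over the 48 liver libraries were with HP, which encodes haptoglobin, a plasma protein that binds free haemoglobin (r = 0.89), SAA1 (0.87), 2 genes carrying the metallothionein name MT1E (0.86 and 0.85) and SAA2 (0.81). They were also the 5 highest among all 13814 genes compared. After removing the mean of each line and time-point the r values were 0.87, 0.84, 0.87, 0.82 and 0.79. The serum amyloid A genes belong to the same family and the metallothionein genes carry the same name. How reads that match more than 1 such relative were counted was not checked. These correlations are descriptions, and libraries of the same cow and time-point group are not independent points.

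**Figure D4:**
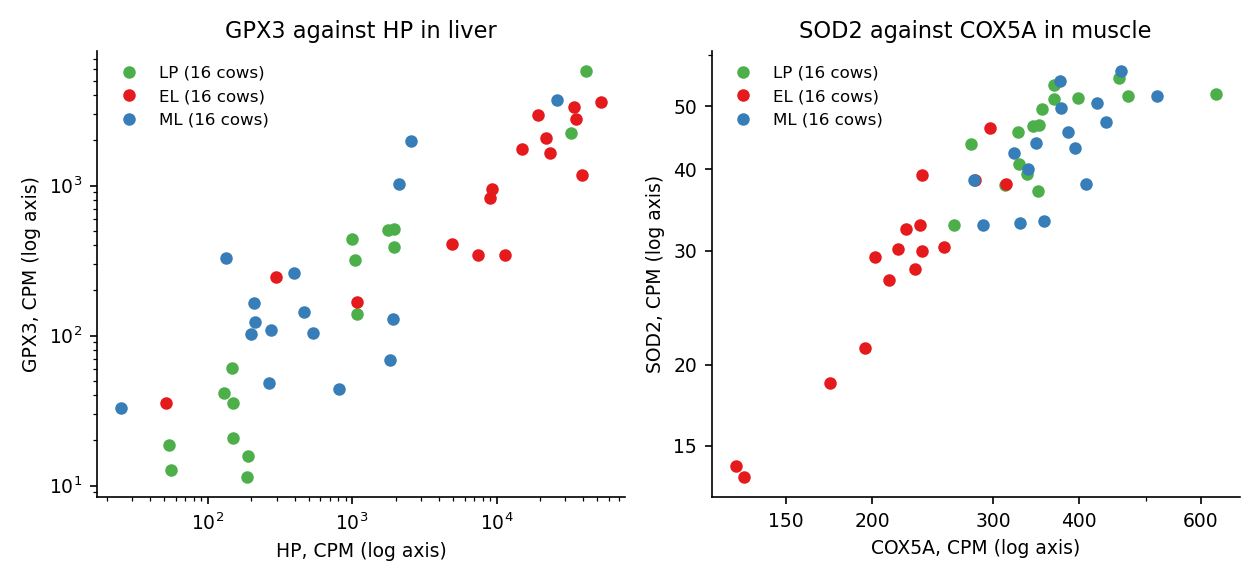
GPX3 against HP in liver (left) and SOD2 against COX5A in muscle (right), in CPM on log axes, 48 libraries each and coloured by time-point. GPX3 and HP rise together over the whole range (r = 0.89) with LP and ML libraries among the EL ones at the top, and SOD2 and COX5A (r = 0.90) are lowest in 2 EL libraries.

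Within cows the likeness held for most. GPX3 and HP moved in the same direction in 14 of 16 cows from LP to EL and in 15 of 16 from EL to ML. Cow 426, with the highest GPX3 at LP, had 41586 CPM of HP at LP and 297.4 CPM at EL. Cow 3434, with the lowest GPX3 at EL, had 1940 CPM of HP at LP and 51.7 CPM at EL. Cow 996, with the highest GPX3 at ML, had 55.3 CPM of HP at LP and 26302 CPM at ML. Other exceptions for GPX3 were not shared by HP: in cow 1000 HP was higher at EL than at LP (1001 and 4878.5 CPM), and in cow 829 it was lower at ML than at EL (9243 and 2537 CPM). Within a time-point, over 16 cows, the r values were 0.95 for LP, 0.91 for EL and 0.70 for ML. HP itself rose by 4.37 ± 1.21 on the log2 scale from LP to EL (edgeR adjusted p = 0.0487), from a median of 596.1 to 13292 CPM. Without the marked libraries the call was lost, at 3.31 ± 1.40 (edgeR adjusted p = 0.365).

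Marker sums of cell types and of the acute phase moved with GPX3 in liver to different degrees. The summed level of 6 acute phase identifiers (HP, SAA3, SAA2, LBP, ITIH4 and HAMP) correlated with GPX3 at r = 0.84 and that of 3 neutrophil markers (S100A8, S100A9 and S100A12) at 0.64, with summed neutrophil levels of 2.62 to 19.5 CPM at LP and 2.32 to 283.6 CPM at EL. The r was -0.41 for hepatocyte, -0.15 for macrophage, 0.01 for erythroid, -0.39 for adipocyte, -0.02 for fibroblast and endothelial and -0.13 for biliary or epithelial markers. Of the acute phase genes, 1 of 6 rose from LP to EL and 6 of 6 fell from EL to ML, against 2.4% and 41.6% of all liver genes called. The part of any of these in the GPX3 values was not tested.

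In muscle the named genes most like SOD2 were subunits of the mitochondrial respiratory chain and ATP synthase, at ranks 1, 3, 4, 5 and 6 of 12674. They were COX5A of cytochrome c oxidase (r = 0.90), ATP5A1 of ATP synthase (0.88), UQCRFS1, the Rieske protein of complex III (0.87), and NDUFS1 (0.87) and NDUFS8 (0.86) of complex I, and after removing group means the r was between 0.70 and 0.79. All 5 fell from LP to EL, by 0.59 to 0.90 on the log2 scale, and rose again by ML, by 0.61 to 0.93. COX5A, for example, had a median of 348.7 CPM at LP, 227.7 CPM at EL and 375.7 CPM at ML (log2 fold change -0.74 ± 0.08 and 0.78 ± 0.08, edgeR adjusted p = 3.79e-09 and 5.50e-10). Over the 16 cows at EL alone, SOD2 and COX5A correlated at r = 0.95, at LP and ML at 0.70 and 0.69.

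Among named genes, GPX3 in muscle was most like WBSCR1 (r = 0.85), GALNT15 (0.82), FTL, the ferritin light chain (0.82), CPNE2 (0.81) and CRYL1 (0.81). They ranked 1, 12, 13, 16 and 20 among all 12674 genes compared, and none is among its 5 closest named genes in liver. The named genes most like SOD2 in liver were ZDHHC19 (r = 0.77), BZW2 (0.76), TNFRSF6B (0.74), TFG (0.73) and PPA1 (0.73), at ranks 7, 9, 14, 19 and 21 of 13814. These last rest on the extreme libraries, since without the 2 libraries farthest from the SOD2 median the r fell to 0.12, 0.15, 0.03, 0.19 and 0.36. The named genes most like GPX2 in liver were KRT19, a keratin of bile duct epithelium (r = 0.63), CA4 (0.58), LTF (0.50), GFPT2 (0.49) and NLRP12 (0.49). Their ranks were 2, 6, 17, 20 and 22 of 13814. Without the 2 libraries farthest from the GPX2 median the r was 0.50, 0.52, 0.38, 0.26 and 0.51. The median of KRT19 was 4.08 CPM at LP, 3.99 CPM at EL and 7.20 CPM at ML. From EL to ML KRT19 rose by 0.80, while EPCAM, the other tested biliary or epithelial marker, changed by 0.06 (edgeR adjusted p = 0.00158 and 0.706). The summed level of the biliary or epithelial markers correlated with GPX2 at r = 0.27.

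The wider antioxidant system was read from a list of 55 genes, of which 19 could be matched to an identifier in the sources used here. None of 8 genes of selenoprotein synthesis and selenium transport was matched. In liver none of the 19 genes passed the test from LP to EL, at the background of 2.4%. From EL to ML 4 rose and 6 fell, where 41.6% of all genes were called, and between LP and ML 2 rose and 2 fell, where 15.2% were. Without the 13 marked libraries 4 rose and 3 fell from EL to ML, and 2 rose and 1 fell between LP and ML. In muscle 16 of the 19 could be tested: 9 rose and 5 fell from LP to EL, 5 rose and 9 fell from EL to ML, and 1 fell between LP and ML, in comparisons that called 57.4%, 63.0% and 8.98% of all genes. Without the marked libraries the counts were 9 and 5, 5 and 10, and 0 and 1. The median log2 fold change of the 16 from LP to EL in muscle was 0.26, against 0.01 over all genes.

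**Figure D5:**
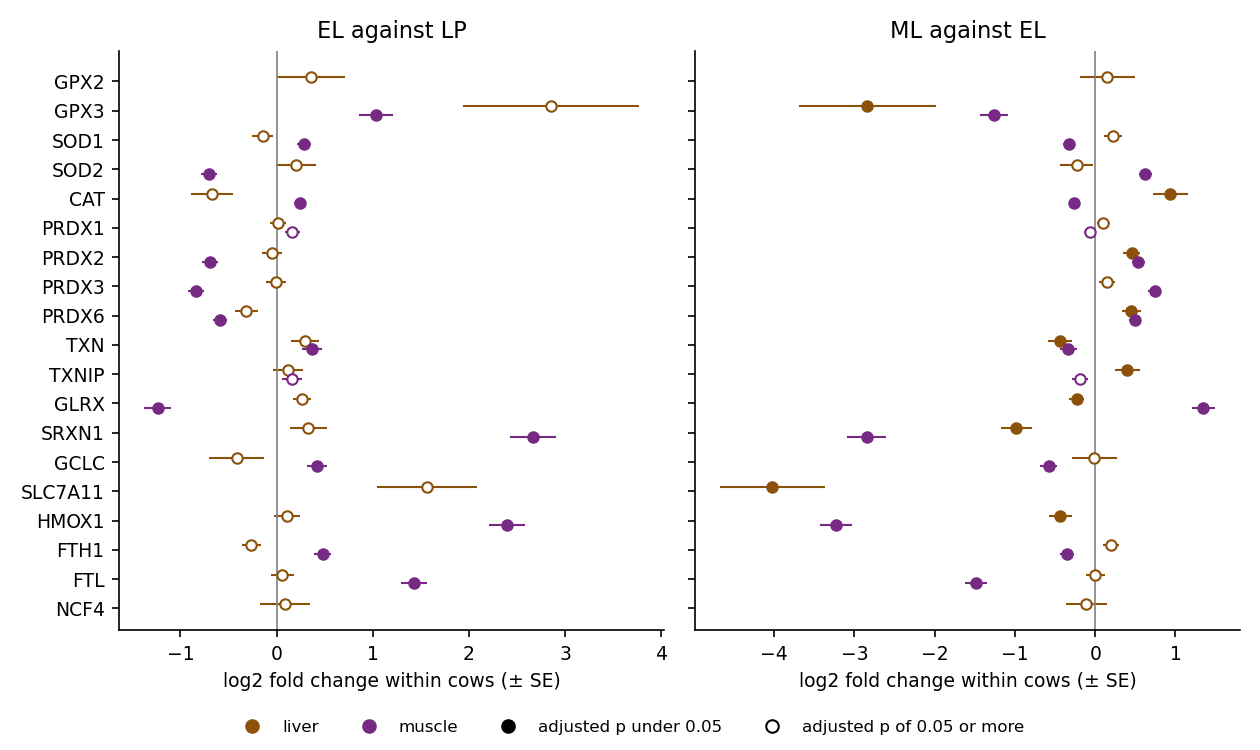
Log2 fold changes within cows (± SE) of the matched antioxidant genes from LP to EL (left) and from EL to ML (right), in liver (brown) and muscle (purple), with filled points for an edgeR adjusted p under 0.05. In muscle SRXN1, HMOX1 and GPX3 go up at EL and GLRX, PRDX3 and SOD2 go down, and each turns back by ML, while no liver point is filled on the left.

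At EL in muscle, the superoxide dismutase, catalase and peroxiredoxin, and thioredoxin lists held genes that rose and genes that fell. Only 1 of 8 genes could be tested in the glutathione peroxidase list, GPX3 itself, and 1 of 8 in the glutathione synthesis list, GCLC. Both rose, as did the 4 tested of 9 genes in the NRF2 list. Of 2 matched superoxide dismutases, SOD1, the copper-zinc enzyme of the cytosol, rose at EL by 0.29 ± 0.07 (edgeR adjusted p = 9.41e-04) while SOD2 fell. Of 5 matched genes for catalase and peroxiredoxins, CAT rose by 0.24 ± 0.06 (edgeR adjusted p = 0.0014) and 3 fell, led by PRDX3, the peroxiredoxin of mitochondria (-0.84 ± 0.08, edgeR adjusted p = 4.25e-10). Of 4 in the thioredoxin system 2 rose and 1 fell, with SRXN1, which reactivates peroxiredoxins, at 2.67 ± 0.24 and GLRX, a glutaredoxin, at -1.24 ± 0.14 (edgeR adjusted p = 1.24e-10 and 8.27e-09). All 4 matched targets of the stress factor NRF2 rose, with SRXN1 counted here again. HMOX1, which breaks down haem, had the smallest adjusted p of the 4, at 2.40 ± 0.19 (edgeR adjusted p = 1.60e-11). GCLC, which makes the precursor of glutathione, rose by 0.42 ± 0.10 (edgeR adjusted p = 8.30e-04). All 14 genes called from LP to EL were called with the opposite sign from EL to ML, with HMOX1 at -3.23 ± 0.20, PRDX3 at 0.74 ± 0.08 and CAT at -0.26 ± 0.06 (edgeR adjusted p = 2.30e-14, 2.32e-09 and 4.53e-04). Of all muscle genes 57.4% and 63.0% were called at these steps, and both steps use the same EL libraries. How many of all genes turned back was not counted.

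In liver CAT, which fell in muscle at this step, rose from EL to ML by 0.93 ± 0.22 (edgeR adjusted p = 0.00129), and PRDX2, a cytosolic peroxiredoxin, rose by 0.45 ± 0.10 (edgeR adjusted p = 9.56e-04). SLC7A11, which brings in cystine for glutathione, fell by 4.02 ± 0.65 (edgeR adjusted p = 3.28e-05). It was close to the limit of detection, with a median of 0.25 CPM at EL (highest 4.86) and 0.037 CPM at ML (highest 0.20). SRXN1 fell by 0.98 ± 0.19 (edgeR adjusted p = 2.71e-04) and HMOX1 by 0.43 ± 0.14 (edgeR adjusted p = 0.0131), whereas SOD1 changed by 0.22 ± 0.11 (edgeR adjusted p = 0.111). NCF4, a subunit of the phagocyte NADPH oxidase and the only matched gene of that list, had a log2 fold change of -0.11 (edgeR adjusted p = 0.756) and did not pass the filter on low counts in muscle.

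Between the fertility lines no member passed the quasi-likelihood test at any time-point in either tissue. The study names these genes from genotype comparisons of the same libraries, so the values are a description. In liver, edgeR's quasi-likelihood test called 0.0% of genes at LP, EL and ML (842, 1530 and 1640 at an unadjusted p under 0.05), against 2, 13 and 76 genes by DESeq2 and 306, 301 and 279 by an exact test with a single common dispersion. In muscle it called 0.0% at LP and ML and 0.00831% at EL, which is 1 gene (800, 918 and 1426 at an unadjusted p under 0.05), against 28, 13 and 137 by DESeq2 and 214, 214 and 438 by the exact test with a common dispersion. The study used edgeR with a common dispersion. It reported GPX2 and GPX3 as down-regulated in Fert+ liver at ML and SOD2 as up-regulated at EL. Here the exact test with a common dispersion called GPX2 (log2 fold change -0.92) and GPX3 (-1.98) in liver at ML (adjusted p = 0.0214 and 7.35e-20). It also called GPX3 at LP (-0.89, adjusted p = 3.99e-04) and SOD2 at EL in liver.

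SOD2 in muscle at EL was higher in Fert+ than in Fert- cows by its mean, without passing the test. The 8 Fert+ cows had 28.1, 31.3 and 46.4 CPM (lowest, median and highest; mean 34.3 ± 6.45) and the 8 Fert- cows 13.4, 24.1 and 37.9 CPM (mean 24.4 ± 8.98). All 8 Fert+ cows were above the Fert- median, but the ranges overlapped. The lowest and the highest Fert- value, of cow 419 (13.4 CPM) and cow 164 (37.9 CPM), were those of marked libraries, and no Fert+ library was marked. The log2 fold change, Fert+ over Fert-, was 0.48 ± 0.20 (edgeR adjusted p = 0.360, exact permutation p = 0.0222 on log2(CPM + 1)). The summed skeletal muscle markers at EL were 47186 to 183248 CPM in Fert+ cows, with a median of 99719.5 CPM, and 22835 to 94823 CPM in Fert- cows, with a median of 55079 CPM. Over the 16 cows at EL the sum correlated with SOD2 at r = 0.66, and its part in the difference between lines was not tested. The change of SOD2 in muscle from LP to EL averaged -0.45 ± 0.23 (SD) on the log2 scale in Fert+ and -0.93 ± 0.35 in Fert- cows. The edgeR test of genotype by time-point gave an adjusted p of 0.295 for it. That interaction test called 0.0% of genes in both tissues (1067 in liver and 1158 in muscle at an unadjusted p under 0.05), and the edgeR adjusted p of the other members that passed the filter was 0.760 to 0.946.

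GPX3 in muscle at ML was at 24.0, 31.6 and 36.2 CPM in Fert+ cows (mean 30.9 ± 4.61) and at 29.5, 37.7 and 63.8 CPM in Fert- cows (mean 41.6 ± 13.0). None of the Fert+ cows was above the Fert- median, and the ranges overlapped between 29.5 and 36.2 CPM. Here too the marked libraries, of cow 164 (29.5 CPM) and cow 419 (40.2 CPM), were all Fert-. The log2 fold change was -0.43 ± 0.16 (edgeR adjusted p = 0.541, exact permutation p = 0.0314).

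In liver no member passed the test, and for SOD2 at EL and GPX3 at LP a single cow decided the sign. The mean of SOD2 at EL was 60.5 ± 86.5 CPM over the Fert+ and 30.1 ± 5.25 CPM over the Fert- animals (log2 fold change 0.997 ± 0.48, edgeR adjusted p = 0.428). Without cow 3847 the Fert+ mean was 29.98 ± 6.72 CPM (n = 7) and the difference of log2 means -0.02 (exact permutation p = 0.903). The mean of GPX3 at LP was 465.4 ± 748.7 CPM over the Fert+ and 854.4 ± 2005 CPM over the Fert- animals. Without cow 426 the Fert- mean was 147.6 ± 167.2 CPM (n = 7), and the difference of log2 means went from -0.18 to 0.60 (exact permutation p = 0.900 and 0.639).

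At ML the median of GPX3 in liver was 116.2 CPM over the Fert+ and 203 CPM over the Fert- animals (log2 fold change -1.98 ± 0.99, edgeR adjusted p = 0.427, exact permutation p = 0.191), and 1 of 8 Fert+ cows was above the Fert- median. It was -1.004 without cow 996, -3.11 without cow 430 and -2.69 without the marked libraries (edgeR adjusted p = 0.616, 0.222 and 0.381). GPX2 in liver was lower in Fert+ cows at EL, 0.50 ± 0.32 against 1.04 ± 0.68 CPM, without passing the test (log2 fold change -1.06 ± 0.46, edgeR adjusted p = 0.399, exact permutation p = 0.0553). GPX2 in muscle at EL had a log2 fold change of -0.90 in the fit without a gene filter (edgeR adjusted p = 0.469, exact permutation p = 0.0218), at levels under 0.51 CPM in both lines. The exact p-values at single time-points are unadjusted, of 18 tests. Averaged over the 3 time-points on the log2(CPM + 1) scale, the difference between lines was -0.67 for GPX3 in liver (exact permutation p = 0.325), -0.30 for GPX3 in muscle, 0.26 for SOD2 in muscle and -0.24 for GPX2 in liver (exact permutation p = 0.058, 0.0665 and 0.0541), all unadjusted and of 6 tests. The smallest p this exact test allows with 8 against 8 cows is 1.55e-04.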

How the data were processed

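The deposited values are counts of read pairs per Ensembl70 gene (UMD_3.1), 1 file per library, which the authors made from TruSeq v2 paired-end reads with Trimmomatic, STAR, Samtools (proper pairs) and featureCounts. They are not normalized. The tables of the whole series have 96 unnamed columns, left out here. Among 336 pairs of libraries of a group none agreed within sampling noise. Whether the counting used strand is not given in the sources used here.

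Here, edgeR 4.0.16 (R 4.3.3) was run per tissue over 48 libraries with cow as a block, TMM factors, filterByExpr and robust quasi-likelihood tests, two-sided, with Benjamini-Hochberg adjustment over all genes and a threshold of 0.05. The cow number in the labels is the animal; residuals of libraries of 1 cow correlated above 0.1 in 39 of 48 pairs in liver and 42 of 48 in muscle. Genotypes were compared on 16 libraries per time-point. Exact permutation tests used log2(CPM + 1) in Python 3.11.15. Approximate 95% intervals assume normal errors. Scripts were tested on simulated data. Alternatives were other scaling, filtering, DESeq2 1.42.0, the 13 libraries marked by 19 genes (as a term or left out), no block and each cow left out. The members, gene lists and tests were chosen with earlier results of these data known. Members were always named. For each pathway list, the gene with the smallest adjusted p in each direction and SOD1 and CAT, relatives or partners of the members, were named, as were the 5 genes with a symbol most correlated with each member. Symbols were known for 2161 identifiers. Coordinates and sequences are not used here.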

Additional observations from a re-analysis of the deposited data

Results flagged for a closer look

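In 11 of 36 groups of 8 cows the highest library stood apart from the nearest by more than Dixon's 95% critical value, taken on CPM. Chance alone exceeds that value in about 1 of 20 groups if values are normally distributed. CPM values are skewed, so the 11 groups cannot be set against that rate. For GPX3 in liver these were cow 426 at LP (5802 CPM, nearest 437.9), and cow 430 at LP (2232 CPM, nearest 515.7) and at ML (1022 CPM, nearest 164.2). For SOD2 in liver they were cow 3847 at EL (274.1 CPM, nearest 38.0), cow 426 at LP (72.4 CPM, nearest 41.1) and cow 782 at ML (46.0 CPM, nearest 31.6). GPX3 in muscle stood apart in cow 419 at EL (275.6 CPM, nearest 136.9). GPX2 stood apart in cow 164 at LP in both tissues, with 1.17 CPM in liver (nearest 0.65) and 0.41 CPM in muscle (nearest 0.15), in cow 33 in liver at ML (1.63 CPM, nearest 0.84) and in cow 430 in muscle at ML (0.50 CPM, nearest 0.20).

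The change of SOD2 differed between liver and muscle, by 0.89 on the log2(CPM + 1) scale from LP to EL and by -0.82 from EL to ML (exact sign-flip permutation test over 16 cows, p = 4.58e-04 and 7.32e-04).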

How the results depend on the processing

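Values are log2 fold changes. Leaving out cows for the comparison of liver with muscle and leaving out the marked libraries for HP and the antioxidant list were chosen after seeing the data. For the members, 239 values from alternatives other than leaving out a cow kept direction and side of the threshold, 15 changed direction, 5 passed it only in the alternative and 2 lost it, and the cause was not tested. Cow was the replicate block. With no replicate block GPX3 in liver was -1.70 from EL to ML (edgeR adjusted p = 0.0827) and -0.52 from LP to ML, and no other call on a member changed. Without the marked libraries, GPX3 in liver was -2.48 from EL to ML and -0.60 from LP to ML (-0.10 with the mark as a term), GPX2 in liver -0.29 from EL to ML, and SOD2 in liver 0.018 from EL to ML and 0.0196 from LP to ML. The differences between lines were then 0.030 for GPX3 in muscle at LP (0.027 as a term), -0.10 for SOD2 in liver at EL and -0.0034 at ML, and -0.0078 for SOD2 in muscle at LP (-0.012 as a term). DESeq2 gave 2.86 for GPX3 in liver from LP to EL, and between lines 1.60 for GPX3 in liver at LP and -0.00077 for SOD2 in liver at EL. With a common dispersion the exact test called liver GPX2 at ML (-0.92), GPX3 at LP (-0.89) and ML (-1.98) and SOD2 at EL (0.997). With log2(CPM + 0.1), GPX2 from LP to EL was -0.28, liver minus muscle.

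Genes called in liver from LP to EL numbered 193 with no gene filter, 0 without the marked libraries and 887 with DESeq2. Between lines, the common dispersion called 306, 301 and 279 genes in liver (LP, EL, ML) and 214, 438 and 214 in muscle, DESeq2 2, 13 and 76, and 28, 137 and 13, and a single fit of 48 libraries 362 in liver and 564 in muscle at EL. In muscle at EL 0 were called with the mark as a term and 0 without the marked libraries.

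Leaving out each cow gave, in liver, -0.022 to 0.37 for GPX2 from EL to ML, 2.53 to 3.31 for GPX3 from LP to EL, -0.40 to 0.46 from LP to ML and -1.999 to 1.66 between lines at LP. SOD2 in liver ran from -0.022 to 0.32 from LP to EL, -0.067 to 0.084 from LP to ML, and between lines from -0.0061 to 1.13 at EL and -0.10 to 0.15 at ML. In muscle between lines at LP, GPX3 ran from -0.25 to 0.030 and SOD2 from -0.0078 to 0.10. Liver minus muscle ran from 1.49 to 2.23 and -1.27 to -0.79 for GPX3, and from -0.037 to 0.094 for GPX2 from LP to EL. Genes called ran from 7 to 1451 in liver from LP to EL, 1368 to 2371 from LP to ML, and between lines in muscle from 0 to 7 at EL, 0 to 4 at LP and 0 to 2 at ML.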
